A study of Homo sapiens with 12 samples.

Results

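The genes described here are 9 genes of the interferon response, STAT2, IRF1, IRF2, IRF3, IRF7, IRF9, ADAR, ISG15 and IFIT5, chosen by gene symbol from the 23615 rows of the deposited expression tables. All 9 have a row in both tables. Over the 12 libraries 8 of them averaged 1 FPKM or more, as did 12183 genes of the whole series. FPKM, the number of fragments scaled to transcript length and to library size, is a level per length that gives a share of the library. As means over the 3 libraries of a group, 6 genes (STAT2, IRF2, IRF3, IRF9, ADAR and IFIT5) reached 1 FPKM in all 4 groups. ISG15 did so in 3 groups and IRF1 in the 2 groups at 0 h. IRF7 reached it in none.

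The study sequenced poly(A) RNA from HEK293T, an epithelial line derived from human embryonic kidney that stably expresses the large T antigen of SV40. It asked how an inhibitor of the decapping enzyme Dcp2 alters the loss of mRNAs once transcription is shut off. The 4 groups were cells given 2 μM CP25, a macrocyclic inhibitor of Dcp2, with 2 h of actinomycin D, cells given vehicle (peptide storage buffer, in an equal volume) with 2 h of actinomycin D, CP25 cells at 0 h, and vehicle cells at 0 h. CP25 or vehicle was applied for 18 h, and actinomycin D, which blocks transcription, was used at 5 μg/mL. No group received interferon or a virus, so far as the labels say. Each group had 3 libraries, numbered 1 to 3. The labels leave unsaid whether these were separate cultures. A p-value here therefore measures the spread between libraries, which may be technical.

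Estimated depth was 21400000 to 28800000 fragments per library at 2 h and 13000000 to 21900000 at 0 h, and libraries of a group correlated across genes at 0.971 to 0.989. Of 7 genes listed for the labelled cell type, 4 averaged 1 FPKM or more: the epithelial keratins KRT18 (37.3 FPKM) and KRT8 (3.33 FPKM), and VIM (216 FPKM) and CDH2 (29.2 FPKM), which are known rather as mesenchymal genes. The epithelial genes EPCAM and CDH1 averaged 0.534 and 0.406 FPKM, and KRT19 was listed at 0 in all 12 libraries, so of 5 epithelial genes listed, 2 were expressed at that level. None of 8 leukocyte and 4 endothelial markers reached a mean of 1 FPKM.

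In the type I interferon pathway, a secreted interferon binds its receptor, the receptor-bound kinases JAK1 and TYK2 phosphorylate STAT2, and STAT2 and IRF9 act in the complex ISGF3. ISGF3 binds the interferon-stimulated response element (ISRE) in the promoters of interferon-stimulated genes, while the gamma-activated site (GAS) is the element of the interferon-γ response. IRF3 and IRF7 act upstream, where infection activates them to switch on the interferon genes. IRF7 mRNA has been reported as a substrate that Dcp2 decaps, which is why it is of interest beside the other factors.

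The promoters of the genes with a match to the ISRE or GAS letters, and short windows of 3′ UTR, are shown here because they are what the pathway and the decay machinery are known to read. RefSeq promoters of 300 bases that span the gene start (GRCh38.p14) were matched for 6 of the 9 genes. IRF2, IRF3 and IRF7 had no entry. The 4 sequences are those of ISG15 (chr1:1013247-1013546, plus strand), IFIT5 (chr10:89414318-89414617, plus strand), IRF1 (chr5:132490724-132491023, minus strand) and IRF9 (chr14:24161015-24161314, plus strand), each written 5′ to 3′ on the strand of the gene with the matched letters in capitals.
ISG15 promoter: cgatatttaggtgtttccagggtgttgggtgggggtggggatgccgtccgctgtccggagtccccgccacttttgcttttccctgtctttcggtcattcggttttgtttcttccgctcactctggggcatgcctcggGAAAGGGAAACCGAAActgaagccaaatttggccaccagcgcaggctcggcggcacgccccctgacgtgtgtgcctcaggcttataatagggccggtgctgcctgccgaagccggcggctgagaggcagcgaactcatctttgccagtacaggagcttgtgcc
IFIT5 promoter: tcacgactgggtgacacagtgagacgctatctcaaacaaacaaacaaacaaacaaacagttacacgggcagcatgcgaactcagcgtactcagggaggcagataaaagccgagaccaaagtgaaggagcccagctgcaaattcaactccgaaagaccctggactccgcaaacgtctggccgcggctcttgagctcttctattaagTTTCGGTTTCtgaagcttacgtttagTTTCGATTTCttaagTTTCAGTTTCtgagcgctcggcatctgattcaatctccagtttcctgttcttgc
IRF1 promoter: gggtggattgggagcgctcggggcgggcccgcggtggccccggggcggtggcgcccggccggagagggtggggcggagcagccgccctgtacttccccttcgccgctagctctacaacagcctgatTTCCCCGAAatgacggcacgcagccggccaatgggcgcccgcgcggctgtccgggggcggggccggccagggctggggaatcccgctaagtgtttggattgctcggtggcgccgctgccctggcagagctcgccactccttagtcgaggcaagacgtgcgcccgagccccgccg
IRF9 promoter: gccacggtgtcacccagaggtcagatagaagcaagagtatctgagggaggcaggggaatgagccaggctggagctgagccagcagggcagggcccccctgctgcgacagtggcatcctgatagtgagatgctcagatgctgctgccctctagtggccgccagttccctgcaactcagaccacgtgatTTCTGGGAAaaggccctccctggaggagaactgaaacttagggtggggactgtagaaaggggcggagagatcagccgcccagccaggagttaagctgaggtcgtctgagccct

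The ISRE was searched as GAAANNGAAA and the GAS as TTCNNNGAA, each on both strands. ISG15 held 2 ISRE matches that overlap each other, at -113 to -104 and -107 to -98 relative to the gene start. IFIT5 held 3, all on the opposite strand, at -45 to -36, -19 to -10 and -4 to 6. A GAS match lay at -124 to -116 in IRF1 and at -63 to -55 in IRF9. The pattern TTCNNNGAA reads the same on both strands, though the bases that fill its N positions here do not. Among 35116 promoters of 300 bases, 3.57% held an ISRE match and 7.66% a GAS match. The promoter windows of STAT2 and of the 3 annotated starts of ADAR held neither set of letters.

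The pentamer ATTTA, the core of the AU-rich elements that mark many unstable mRNAs, was searched in the 3′ UTR of the GENCODE 29 transcript of each gene. It occurred 4 times in the 2342 nt of IRF1, 4 times in the 2353 nt of IFIT5, 3 times in the 2744 nt of ADAR and once in the 1045 nt of IRF2. Neither STAT2 (679 nt) nor IRF9 (369 nt) held it, and the short 3′ UTRs of IRF7 (90 nt), IRF3 (75 nt) and ISG15 (62 nt) did not either. The first window of each gene that holds the pentamer is shown with it in capitals, and the one of IRF1 has 2 overlapping copies.
IRF1 3′ UTR window: cttggcctttgcATTTATTTAtacagtgcc
IRF2 3′ UTR window: tttctacagcaaATTTAtaattttaagatt
IFIT5 3′ UTR window: tatagagctaatATTTAttgaatagttatt
ADAR 3′ UTR window: ctttgggttcccATTTAtcctgctttcttt

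The count was read against length. Of the 1377 genes with a 3′ UTR within 20% of the length of that of IRF1, 93.8% held at least 1 ATTTA. For the length of ISG15 the share was 7.87%, and for that of STAT2 it was 63.9%. All 4 genes that held the pentamer lay below the median of genes of their length, which was 5 for IRF1 and IFIT5, 6 for ADAR and 2 for IRF2.

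IRF7, the master regulator of interferon-α genes and the reported Dcp2 substrate, was close to undetected. Its levels were 0.038, 0.0208 and 0 FPKM in CP25 cells at 2 h, against 0, 0 and 0.049 FPKM in vehicle cells at 2 h. At 0 h they were 0.0247, 0.0244 and 0.0258 FPKM in CP25 cells, against 0, 0.028 and 0 FPKM in vehicle cells. Both treatments thus held libraries above 0 at each time, and the groups overlapped at 2 h and at 0 h. The 7 libraries above 0 held an estimated 0.986 to 2.18 fragments of IRF7 each, and the sums over 3 libraries were 3.27 in CP25 and 2.15 in vehicle at 2 h, and 3.16 in CP25 and 1.08 in vehicle at 0 h. For the 5 libraries at 0, the limit that a count of 0 allows (3 fragments, counting error only) was 0.0508 to 0.113 FPKM. That limit lies above every IRF7 value measured, so a difference was not detectable at this depth, and no fold change is given. The authors' deposited table lists IRF7 as not tested at either time.

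**Figure D1:**
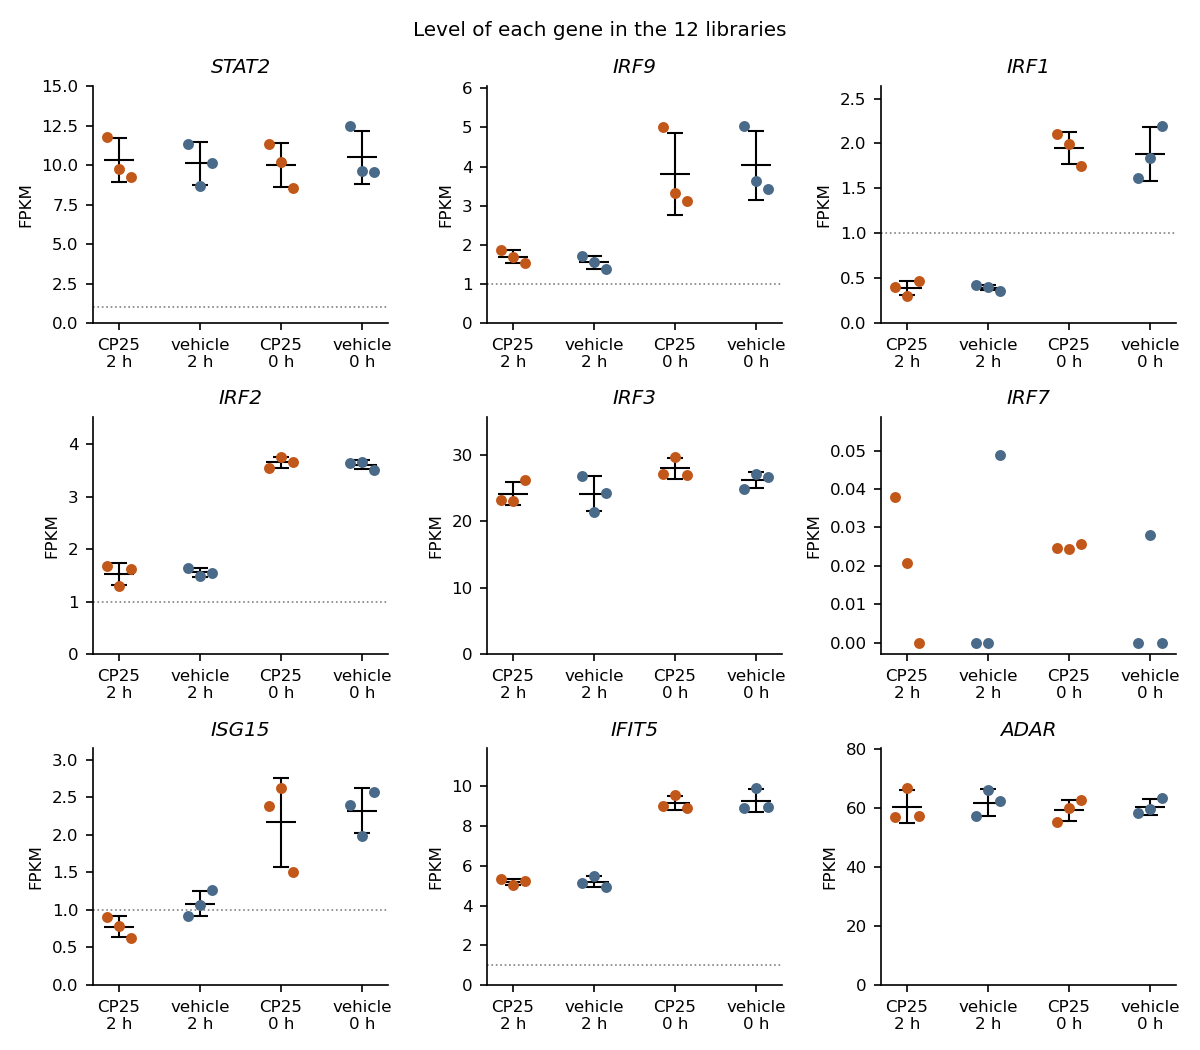
Level of each of the 9 genes in FPKM (vertical axes, linear, a separate scale per gene) in the 3 libraries of each group: points are libraries, ordered by replicate number from left to right, horizontal bars the mean and error bars the SD (not drawn for IRF7), and dotted lines mark 1 FPKM where drawn. IRF1, IRF2, IRF9, ISG15 and IFIT5 were lower at 2 h than at 0 h in every library, and in IRF7 no library passed 0.049 FPKM.

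The level per transcript length spanned a wide range. At 0 h the order of the means was ADAR, IRF3, STAT2, IFIT5, IRF9, IRF2, ISG15, IRF1 and IRF7 in both treatments. The ranges of STAT2 and IFIT5, of IRF9 and IRF2, and of ISG15 and IRF1 overlapped there, and the other neighbours did not. At 2 h the order was the same in CP25 cells, while in vehicle cells IRF2 and IRF9 changed places by a margin within their spread. Among neighbours at 2 h, IRF9 and IRF2 alone overlapped, in both treatments. ADAR averaged 60.4 ± 5.67 FPKM in CP25 and 61.8 ± 4.54 FPKM in vehicle cells at 2 h, and 59.2 ± 3.63 FPKM in CP25 and 60.4 ± 2.71 FPKM in vehicle cells at 0 h (SD, n = 3 each). That placed it at percentile 87.4 to 88.6 of the genes of at least 1 FPKM, depending on the group.

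What was left of each mRNA after 2 h is given as the mean FPKM at 2 h in percent of the mean at 0 h of the same treatment, with the SD of the 3 libraries at 2 h over that mean. The 2 times were deposited in separate tables that may have been scaled separately, so these percentages are described without a test. Because FPKM is a share of the library, 100% means that an mRNA kept its share, not its amount. Over the 12183 genes the median was 87.9% in CP25 and 86.6% in vehicle cells. The percentile with rank 10 of this distribution was 46.7% in CP25 and 46.3% in vehicle cells.

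By this measure the 8 measurable genes spread widely. IRF1, ISG15, IRF9 and IRF2 had less than 50% left in both treatments, IFIT5 lay just above 50%, and IRF3, STAT2 and ADAR kept most or all of their share. Less than 50% was left for 11.7% of all genes in CP25 cells, 12.1% in vehicle cells and 10.2% in both. The median of the 8 genes was 50.7% in CP25 and 51.3% in vehicle cells. IRF1 passed the mean of 1 FPKM only through its 0 h libraries, and ISG15 nearly so, which favours genes that were lower at 2 h, and nothing is read from that count or median.

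**Figure D2:**
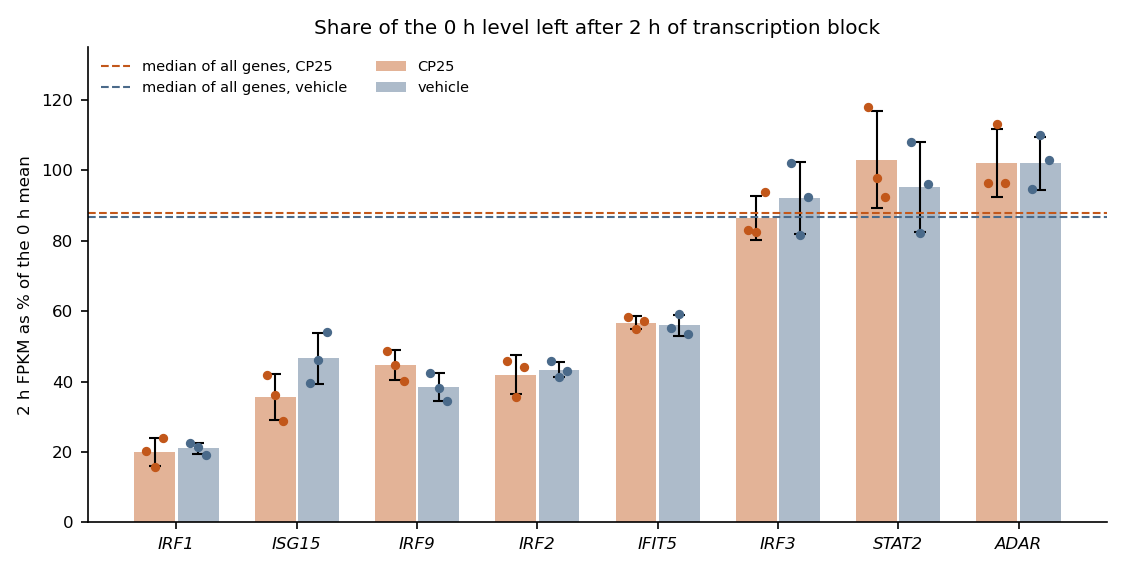
Mean FPKM at 2 h in percent of the mean at 0 h of the same treatment (vertical axis, from 0) for the 8 genes that averaged 1 FPKM or more: bars are the ratio of means, points the 3 libraries at 2 h, error bars the SD of those points, and dashed lines the median of all 12183 genes. IRF1 was lowest, at 20% in CP25 and 21% in vehicle cells, and STAT2 and ADAR lay above both medians.

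Among the transcription factors, IRF1 had the least left. IRF1 is an activator that is itself induced by interferon-γ and is known for a short-lived mRNA. Its levels were 0.396, 0.306 and 0.465 FPKM in CP25 cells and 0.423, 0.401 and 0.361 FPKM in vehicle cells at 2 h. The 0 h levels were 2.11, 1.99 and 1.75 FPKM in CP25 cells and 1.61, 1.84 and 2.2 FPKM in vehicle cells. Every library at 2 h lay far below every library at 0 h, and CP25 and vehicle overlapped at both times. IRF1 had 20% ± 4.09 left in CP25 and 21% ± 1.68 in vehicle cells (SD, n = 3 each). A smaller share was left for 1.48% of the genes in CP25 cells and 1.67% in vehicle cells. As IRF1 passed the filter only through its 0 h libraries, which favours a low percentage, nothing is read from this rank. An estimated 27.7 to 41.4 fragments per library stood behind the 2 h values. Exons of IRF1 share 580 of 3792 nt with C5orf56 on the opposite strand. The strandedness of the libraries is not given in the sources used here, and C5orf56, at 0.946 FPKM in CP25 and 0.751 FPKM in vehicle cells at 2 h, was higher there than IRF1. Its part in the 2 h level of IRF1 was not tested.

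IRF2, which binds the same sites as IRF1 and mostly represses them, had more left. It was measured at 1.68, 1.3 and 1.62 FPKM in CP25 cells and 1.65, 1.49 and 1.55 FPKM in vehicle cells at 2 h. At 0 h it stood at 3.55, 3.77 and 3.66 FPKM in CP25 cells and 3.64, 3.67 and 3.51 FPKM in vehicle cells. The times were fully separated and the treatments interleaved. IRF2 had 41.9% ± 5.57 left in CP25 and 43.4% ± 2.23 in vehicle cells (SD, n = 3 each).

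IRF9, the DNA-binding subunit of ISGF3, had 44.6% ± 4.26 left in CP25 and 38.4% ± 4.01 in vehicle cells (SD, n = 3 each). Its levels were 1.86, 1.7 and 1.53 FPKM in CP25 cells and 1.72, 1.55 and 1.39 FPKM in vehicle cells at 2 h. Those at 0 h were 5, 3.33 and 3.11 FPKM in CP25 cells and 5.05, 3.64 and 3.43 FPKM in vehicle cells. Again no library at 2 h reached any at 0 h, and CP25 and vehicle overlapped. In each group replicate 1 was the highest, by a factor of 1.55 over the mean of replicates 2 and 3 in CP25 and 1.43 in vehicle cells at 0 h. Without replicate 1 of CP25 cells at 0 h, IRF9 had 52.8% left in CP25 cells, which takes it above 50%, and without replicate 1 of vehicle cells at 0 h it had 43.9% left in vehicle cells.

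STAT2, the ISGF3 subunit that carries the transactivation domain, kept its share. It had 11.8, 9.76 and 9.22 FPKM in CP25 cells and 11.3, 8.67 and 10.1 FPKM in vehicle cells at 2 h. At 0 h it had 11.3, 10.2 and 8.54 FPKM in CP25 cells and 12.5, 9.61 and 9.55 FPKM in vehicle cells. All 4 groups overlapped. STAT2 had 103% ± 13.8 left in CP25 and 95.3% ± 12.7 in vehicle cells (SD, n = 3 each). As in IRF9, replicate 1 was the highest of each group, by a factor of 1.2 to 1.3 over the other replicates. This ordering, looked for after the values were seen, held for 4.62% of all genes, for 2 of the 8 genes here and for 1 of 43 other interferon genes (IFIH1). It is part of the spread against which the treatments are compared.

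For the ISGF3 subunits IRF9 and STAT2, the percentages left of IRF9 lay between 34.5% and 48.7% over the 6 libraries at 2 h, and those of STAT2 between 82.2% and 118%, without overlap.

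IRF3, the constitutively made factor that virus sensors activate, lay near the median gene. Its levels were 23.3, 23.1 and 26.3 FPKM in CP25 cells and 26.9, 21.5 and 24.3 FPKM in vehicle cells at 2 h. In CP25 cells it had 27.2, 29.8 and 27 FPKM at 0 h, against 24.9, 27.2 and 26.7 FPKM in vehicle cells. The 2 h libraries lay below the 0 h libraries in CP25 cells but overlapped them in vehicle cells. IRF3 had 86.5% ± 6.29 left in CP25 and 92.1% ± 10.2 in vehicle cells (SD, n = 3 each). Its exons share 482 of 2394 nt with BCL2L12 on the opposite strand, which stood at 18.3 FPKM in CP25 and 18.1 FPKM in vehicle cells at 2 h. Reads of this pair may not have been told apart.

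Among the induced and effector genes, ISG15 had the least left. ISG15 is a ubiquitin-like protein that is conjugated to many targets during the interferon response. It was measured at 0.908, 0.786 and 0.627 FPKM in CP25 cells at 2 h, against 0.922, 1.07 and 1.26 FPKM in vehicle cells. At 0 h it had 2.38, 2.63 and 1.5 FPKM in CP25 cells, against 2.4, 1.99 and 2.57 FPKM in vehicle cells. All CP25 libraries at 2 h lay below all vehicle libraries at 2 h, by a narrow margin, while the treatments overlapped at 0 h. ISG15 had 35.7% ± 6.49 left in CP25 and 46.6% ± 7.19 in vehicle cells (SD, n = 3 each). Without replicate 1 of vehicle cells at 2 h it had 50% left in vehicle cells. Its transcript is short, and the 2 h values rested on an estimated 10.6 to 18.1 fragments per library in CP25 and 17.9 to 21.9 in vehicle cells.

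IFIT5 belongs to a family of interferon-induced proteins that bind the 5′ ends of foreign RNAs. It had 5.34, 5.02 and 5.23 FPKM in CP25 cells and 5.12, 5.5 and 4.95 FPKM in vehicle cells at 2 h. Its 0 h levels were 9, 9.57 and 8.89 FPKM in CP25 cells and 8.91, 9.94 and 8.98 FPKM in vehicle cells. The times were fully separated, with the smallest relative spread of the 8 genes in CP25 cells at 2 h, and the treatments overlapped. IFIT5 had 56.7% ± 1.78 left in CP25 and 56% ± 3.03 in vehicle cells (SD, n = 3 each).

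ADAR, which deaminates adenosine in double-stranded RNA and is made from a constitutive and an interferon-induced promoter, kept its share. Its levels were 57, 66.9 and 57.1 FPKM in CP25 cells and 57.1, 66.2 and 62.2 FPKM in vehicle cells at 2 h. At 0 h they were 55.3, 59.8 and 62.5 FPKM in CP25 cells and 58.2, 59.5 and 63.4 FPKM in vehicle cells. All groups overlapped, and ADAR had 102% ± 9.58 left in CP25 and 102% ± 7.51 in vehicle cells (SD, n = 3 each). The tables hold 1 row per gene, so the transcripts of its promoters were not separated.

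**Figure D3:**
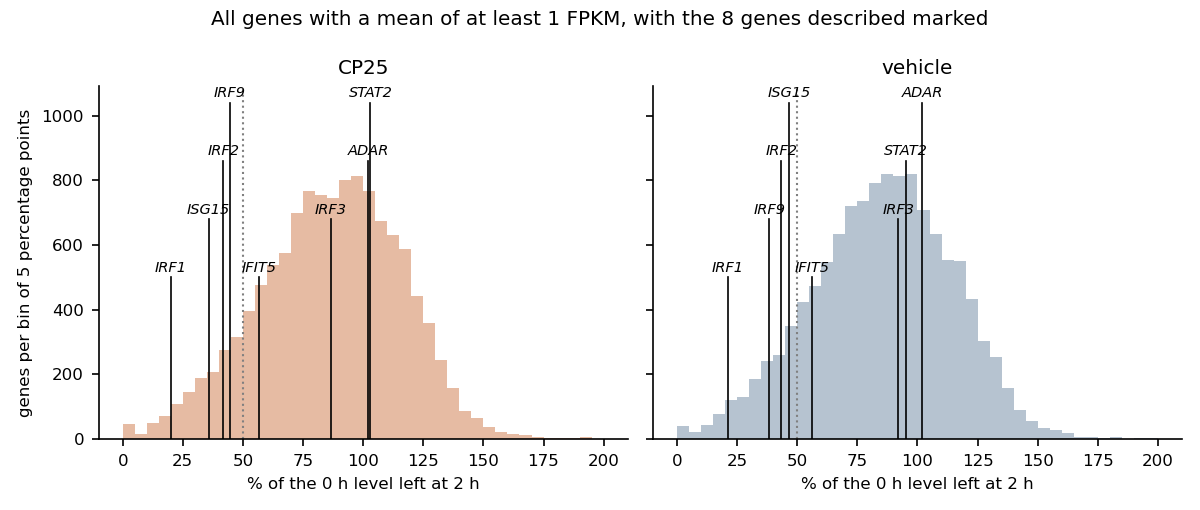
Number of genes (vertical axis, per bin of 5 percentage points) by percent of the 0 h level left at 2 h (horizontal axis) in CP25 and in vehicle cells, for the 12183 genes averaging 1 FPKM or more; black lines mark the 8 genes, their heights chosen for legibility only, and dotted lines mark 50%. IRF1, which passed 1 FPKM only through its 0 h libraries, stood in the far left tail, and IRF3, STAT2 and ADAR in the body of both distributions. Genes above 200% (47 in CP25, 40 in vehicle cells) are not drawn.

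These percentages depend on how the tables are scaled. When each library was scaled to its own median gene, the median percentage was 112% in CP25 and in vehicle cells, a shift of 0.36 and 0.37 on the log2 scale. Relative to the median gene, which does not depend on that scaling, IRF1 had 22.7% in CP25 and 24.3% in vehicle cells, ISG15 40.6% in CP25 and 53.8% in vehicle cells, IRF2 47.6% in CP25 and 50.1% in vehicle cells, and IRF9 50.7% in CP25 and 44.3% in vehicle cells. IFIT5 had 64.6% in each, IRF3 98.4% in CP25 and 106% in vehicle cells, STAT2 117% in CP25 and 110% in vehicle cells, and ADAR 116% in CP25 and 118% in vehicle cells. IRF3, STAT2 and ADAR thus lay near or above the median gene. In percent of their own 0 h level, scaled libraries put STAT2 at 132% in CP25 and 124% in vehicle cells, and ADAR at 130% in CP25 and 133% in vehicle cells.

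The second question is whether CP25 altered the levels of these genes before the block. At 0 h none of the 8 genes differed between CP25 and vehicle cells by limma on log2(FPKM + 1), with every Benjamini-Hochberg adjusted p = 1 over the 12365 genes tested. Across all genes 0% were called, with 43 higher and 45 lower at an unadjusted p under 0.05. The 8 log2 differences, CP25 over vehicle, ran from -0.08 in ISG15 to 0.09 in IRF3, and 3 of 8 were positive. IRF3 had the smallest unadjusted p, 0.211, with a 95% interval of -0.06 to 0.24. The widest interval was that of IRF9, -0.49 to 0.34, so a change of up to 1.41-fold in FPKM + 1 lay within the intervals of the group. With libraries of the same number blocked together, the interval was -0.22 to 0.0689 in IRF9 and -0.21 to 0.0757 in STAT2. That of ISG15 stayed wide under the block, at -0.47 to 0.31.

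After 2 h of block, 6 of the genes passed the filter and none differed between CP25 and vehicle cells (limma, every adjusted p = 1 over 11745 genes). Of all genes 0.00851% were called, a single small nucleolar RNA (SNORD76), with 45 higher and 42 lower at an unadjusted p under 0.05. The 6 differences ran from -0.04 in ADAR to 0.08 in IRF9, and their intervals allow a change of up to 1.24-fold in FPKM + 1. IFIT5 was the most narrowly bounded of these, at 0.00 with an interval of -0.17 to 0.17. With same-numbered libraries blocked together, the interval was -0.12 to 0.18 in STAT2 and -0.0901 to 0.25 in IRF9.

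IRF1 and ISG15 fell under the filter of that comparison and were read from the fit of all 12 libraries. IRF1 differed by -0.01, with a 95% interval of -0.24 to 0.22. ISG15 differed by -0.23, with an interval of -0.54 to 0.08 and an unadjusted p of 0.128 (limma, adjusted p = 1). Without a filter on low values the 2 h comparison gave the same -0.23 with an interval of -0.44 to -0.02 and an unadjusted p of 0.0378, which did not pass the adjustment (limma, adjusted p = 1). The authors' deposited table gives a p-value of 0.182 for ISG15 at 2 h. ISG15 was the sole gene of the 9 whose CP25 and vehicle libraries did not overlap at 2 h, a separation in the lower direction that 1.76% of all genes showed.

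The study's central question is whether CP25 altered what was left of these mRNAs. It was tested as the CP25 effect at 2 h minus the CP25 effect at 0 h. A scale factor of either table nearly cancels in this difference for genes well above 1 FPKM. It cancels less well for IRF2 and IRF9, with group means of 1.53 to 1.7 FPKM at 2 h. For IRF1 and ISG15 the added 1 FPKM is about as large as the 2 h level or larger, and the factor does not cancel. None of the 8 genes passed (limma, every adjusted p = 1 over 12183 genes), and 0% of all genes were called, with 94 higher and 59 lower at an unadjusted p under 0.05. The largest differences were 0.16 in IRF9, with a 95% interval of -0.31 to 0.62, and -0.15 in ISG15, with an interval of -0.59 to 0.29. Single libraries set much of both values: IRF9 ran from 0.0162 without vehicle 0 h replicate 1 to 0.32 without CP25 0 h replicate 1, and ISG15 from -0.31 without CP25 0 h replicate 3 to -0.0428 without CP25 0 h replicate 2. IRF1 differed by -0.04, with an interval of -0.37 to 0.28. The narrowest interval was that of IFIT5, -0.18 to 0.22 around 0.02. Intervals of this width, fitted without pairing the libraries, allow a change of up to 1.54-fold in FPKM + 1. With same-numbered libraries blocked together, the interval narrowed to -0.0283 to 0.34 in IRF9 and widened to -0.65 to 0.35 in ISG15. Without the block, far less than a share of 0.05 of all genes had an unadjusted p under 0.05. The adjusted p-values thus run high, for a cause that was not tested. A p that misses the threshold does not show that CP25 left these mRNAs alike. The +1 understates changes of the low genes: with a pseudocount of 0.1 FPKM the difference was -0.32 in ISG15, with an SE of 0.31, and -0.08 in IRF1, with an SE of 0.30.

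**Figure D4:**
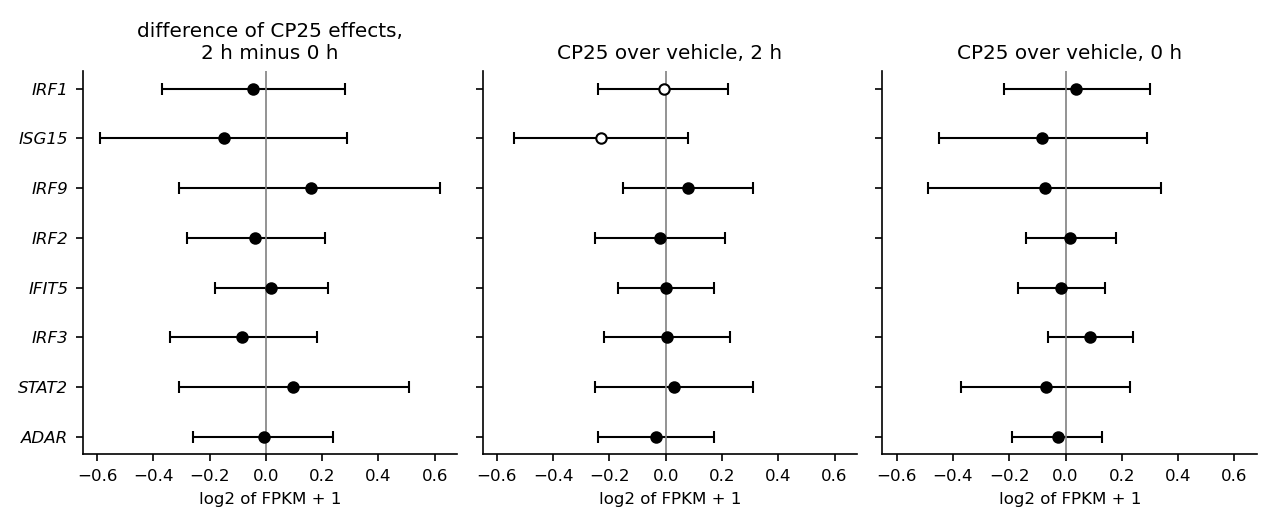
Differences in log2(FPKM + 1) with 95% intervals from limma (horizontal axes) for the 8 genes: the CP25 effect at 2 h minus that at 0 h on the left, CP25 over vehicle at 2 h in the middle and at 0 h on the right; open circles mark IRF1 and ISG15, read at 2 h from the fit of all 12 libraries. Every interval spans 0, and among those at 2 h the interval of ISG15 reaches furthest below it, from -0.54 to 0.08.

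The rest of the pathway was described with 92 further genes in 6 lists. All had a row, 43 averaged 1 FPKM or more, and none of these was called in any of the 3 comparisons (limma, adjusted p under 0.05). Their median was 93% left in CP25 and 97.6% in vehicle cells, and 6 of 43 had less than 50% left in each treatment, beside 11.7% and 12.1% of all genes.

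None of the 12 interferon genes, the ligands of the pathway, reached a mean of 1 FPKM, and 6 were listed at 0 in all 12 libraries. IFNB1, the interferon that IRF3 switches on first, was above 0 in 1 library alone, of CP25 cells at 0 h, at 0.0701 FPKM.

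All 9 receptor chains and JAK kinases were expressed. JAK1, which serves all interferon receptors, had the highest mean over the 12 libraries, 36.4 FPKM. It stood at 38.1 ± 5.39 FPKM in CP25 and 36.4 ± 4.47 FPKM in vehicle cells at 2 h, and 35.5 ± 1.81 FPKM in CP25 and 35.6 ± 0.849 FPKM in vehicle cells at 0 h (SD, n = 3 each). At 0 h IFNGR1, a chain of the interferon-γ receptor, was higher by value, at 38.7 ± 1.85 FPKM in CP25 and 38.2 ± 0.951 FPKM in vehicle cells. JAK1 had 107% left in CP25 and 102% in vehicle cells. IFNLR1, the specific chain of the receptor for interferon-λ, was the sole one under 50%, with 35% left in CP25 and 39.4% in vehicle cells.

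Of 13 other STAT and IRF factors and IRF2 partners, 9 were measured. IRF2BP1 and IRF2BP2, corepressors found as partners of IRF2, and their relative IRF2BPL had little left: IRF2BPL 17.9% in CP25 and 19.3% in vehicle cells, IRF2BP2 22% in CP25 and 23.2% in vehicle cells, and IRF2BP1 30.8% in CP25 and 32.7% in vehicle cells. IRF2BPL lay below IRF1 in both treatments, by 1 SD or less of IRF2BPL. STAT4 had the most left of this list, 139% in CP25 and 154% in vehicle cells, at a mean of 1.45 FPKM.

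Of 15 nucleic acid sensors and their relays, 7 were measured. TRAF6, a ubiquitin ligase downstream of Toll-like receptors, was the sole one under 50%, with 34.4% left in CP25 and 28.9% in vehicle cells. IFIH1 (MDA5), a cytoplasmic sensor of long double-stranded RNA, had 107% left in CP25 and 137% in vehicle cells. TBK1, the kinase that phosphorylates IRF3, had the highest level, at a mean of 18.9 FPKM over the 12 libraries, with 74.6% left in CP25 and 68.7% in vehicle cells. TICAM1, the adaptor of TLR3, was under the filter and is named after its values were seen: it averaged 0.114 FPKM in CP25 and 0.134 FPKM in vehicle cells at 2 h, against 1.23 FPKM in CP25 and 1.32 FPKM in vehicle cells at 0 h.

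Of 35 other interferon-stimulated genes, 14 were measured and none had less than 50% left. The lowest was TRIM21, an antibody receptor in the cytosol, with 55.2% left in CP25 and 59.6% in vehicle cells. IFITM1, a membrane protein that blocks virus entry, had 154% ± 63.9 left in CP25 and 145% ± 44.8 in vehicle cells, a wide spread. HERC5, the ligase that attaches ISG15 to its targets, had 147% ± 27.4 in CP25 and 144% ± 19.7 in vehicle cells (SD, n = 3 each). SAMHD1, which degrades deoxynucleotides, had the highest level, at a mean of 42.5 FPKM over the 12 libraries. OAS1 and OAS2, classic interferon-induced sensors, were listed at 0 in all libraries.

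Among 8 genes of ISG15 conjugation and of negative feedback, 4 were measured. USP18, which removes ISG15 from its targets, was well expressed and had 101% left in CP25 and 97.1% in vehicle cells, above ISG15 itself. UBE2L6, the conjugating enzyme for ISG15, had 123% ± 48.5 left in CP25 and 126% ± 33.8 in vehicle cells (SD, n = 3 each). PIAS1, an inhibitor of STAT signalling, was the sole one under 50%, with 46.9% left in CP25 and 41.3% in vehicle cells.

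**Figure D5:**
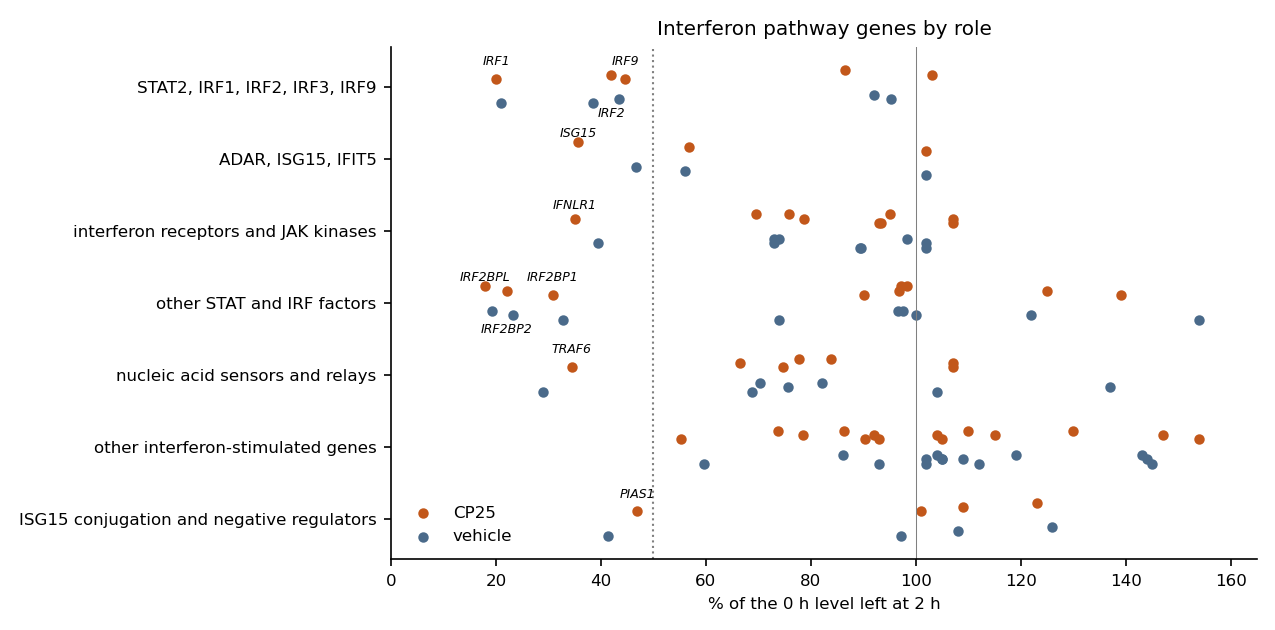
Percent of the 0 h level left at 2 h (horizontal axis) for each gene averaging 1 FPKM or more, by role (rows), in CP25 (upper points of a row) and vehicle cells (lower points); names are printed for genes under 50% in CP25 cells and the dotted line marks 50%. Genes under 50% stand in every row except that of the 14 other interferon-stimulated genes, of which the lowest is TRIM21 at 55.2% in CP25 and 59.6% in vehicle cells.

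The genes whose pattern over the 12 libraries was most like that of IRF1 and ISG15, the 2 genes here furthest from their 0 h level by the log2 ratio averaged over both treatments (-2.29 and -1.29, with IRF9 next at -1.27), were found by Pearson's r of log2(FPKM + 1) among 12182 other genes. For IRF1 these were PRKCE, with r = 0.9960 and 35.2% left in CP25 and 37.2% in vehicle cells, C5orf30, with r = 0.9957 and 43% left in CP25 and 43.6% in vehicle cells, and CCDC71L, with r = 0.9949 and 38.5% left in each. For ISG15 they were DGKD, with r = 0.9720, HELZ2, with r = 0.9662, and RNF217, with r = 0.9612. DGKD had 75.3% left in CP25 and 76.3% in vehicle cells. All points share the 2 tables, so these values describe mainly the step between the times.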

How the data were processed

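Expression values are the FPKM per library that the authors deposited, 1 table per time. The submitters' processing notes name Bowtie2 2.2.3, CASAVA 1.8.2, Trimmomatic 0.36 and the hg19 build. Which program and annotation gave the FPKM is not given in the sources used here. A p-value per gene for CP25 against vehicle at each time, deposited by the authors, was adjusted here as an alternative. No read counts were used: depth was estimated from the FPKM step of 1 fragment in genes of known length, and limits based on it cover counting error only.

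From FPKM, log2(FPKM + 1) was computed and every gene that averaged 1 FPKM or more in a fit was tested with limma 3.58.1 in R 4.3.3 (mean-variance trend, Benjamini-Hochberg adjustment over all genes at 0.05, 95% intervals). The fits were tested on simulated data with changes far larger than the differences described here, so that test does not bear on differences of this size. CP25 was compared with vehicle within each time, and the difference of effects in a fit of all 12 libraries. Symbols that had become dates stayed in the fits but are not named. The 9 genes, the lists and the tests were chosen with earlier results of these data known. Named were the 9 genes, those at the extremes of each list by level and by percent left, and the 3 genes with the highest r to each of the 2 genes furthest from their 0 h level by the mean log2 ratio over both treatments. Any other gene in the text was chosen after its values were seen. Alternatives were a pseudocount of 0.1 FPKM (1 FPKM for percentages), no filter, libraries centred on or scaled to their median, 1 fit of 12 libraries, a replicate block, and leaving out each library. Promoters came from RefSeq on GRCh38.p14 and transcripts from GENCODE 29. No coordinate was converted from hg19.

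Same-numbered CP25 and vehicle libraries deviated together from their group means at 2 h, with correlations across genes of 0.347, 0.44 and 0.147. Differently numbered pairs ran from -0.439 to 0.117 at 2 h. The numbers thus pair replicates 1 and 2 there, and replicate 3 less clearly. At 0 h the correlations were 0.258, -0.0101 and 0.124, and differently numbered pairs ran from -0.22 to 0.124. Replicate 1 alone stood above those pairs, so the numbers pair the 0 h libraries in part at most. The replicate block lowered the SE of IRF9 at 0 h from 0.18 to 0.0573 and that of STAT2 from 0.13 to 0.0576. It left those of IRF1 (0.11) and ISG15 (0.16) unchanged. The labels give no more than the number, so this pairing is read from the data.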

Additional observations from a re-analysis of the deposited data

How the results depend on the processing

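Among the tests of the 8 genes, none passed an adjusted p of 0.05 under any alternative run, and the lowest adjusted p (limma) was 0.54 under the replicate block and 0.944 with a library left out. With the replicate block, limma called 0 genes at 0 h, 1 at 2 h and 0 for the difference of effects, as without it, and IRF9 differed by 0.16 with an interval of -0.0283 to 0.34 (limma, adjusted p = 0.54). Of 116 log2 differences under other alternatives, 115 kept their direction, and IFIT5 at 2 h turned to -0.00312 with libraries centred on their median. Many of the 116 could not turn. No filter, the replicate block, 1 fit of 12 libraries and the authors' p-value leave the difference itself unchanged by design. The count of 115 is therefore not read as a check of direction. With a library left out, which can change the difference, 142 of 180 kept their direction. The differences that turned ran, at 0 h, from -0.15 to 0.0485 in STAT2, -0.0328 to 0.12 in IRF1, -0.24 to 0.0645 in IRF9, -0.0672 to 0.0192 in ADAR, -0.19 to 0.0803 in ISG15 and -0.046 to 0.0292 in IFIT5. At 2 h they ran from -0.0681 to 0.11 in STAT2, -0.0628 to 0.0476 in IRF2, -0.0751 to 0.0794 in IRF3, -0.11 to 0.0135 in ADAR and -0.0271 to 0.0366 in IFIT5. For the difference of effects they ran from -0.0196 to 0.18 in STAT2, -0.12 to 0.0253 in IRF1, -0.08 to 0.0305 in IRF2, -0.0828 to 0.0416 in ADAR and -0.0282 to 0.0534 in IFIT5. The cause was not tested. Over all genes, the calls with a library left out were 1 to 4 at 0 h (4 without CP25 replicate 1), 1 to 7 at 2 h (7 without CP25 replicate 2) and 0 to 3 for the difference of effects (3 without CP25 0 h replicate 2), and the 1 call at 2 h became 0 in 1 fit of 12 libraries and 0 with the authors' p-value adjusted. Genes with less than 50% left numbered 1425 in CP25 and 1476 in vehicle cells. They numbered 884 in CP25 and 898 in vehicle cells with a pseudocount of 1 FPKM, 801 and 795 with libraries scaled to their median, and 1337 to 1522 and 1378 to 1585 with a library left out. With libraries scaled to their median, 2 of the 8 genes stayed under 50% in CP25 (IRF1 25.5%, ISG15 45.7%) and 2 in vehicle cells (IRF1 27.2%, IRF9 49.9%). With the pseudocount of 1 FPKM, 1 did in each, IRF1, at 47.1% in CP25 and 48.4% in vehicle cells. Depth limits IRF7, ISG15 and, at 2 h, IRF1.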
